A study of Homo sapiens with 12 samples.

Results

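The BCL2 family genes described here are 10 genes for pro-survival and pro-death regulators of mitochondrial apoptosis, BCL2, BCL2L1, BCL2L2, MCL1, BAK1, BID, BIK, BAD, BCL2L11 and BMF. They were chosen by name, leaving out the classic p53 targets of the family. Each had 1 feature on the array, so 10 of 17687 named genes are described. The study measured RNA from a pair of established human colorectal cancer lines, HCT 116 and DLD1, on 12 arrays of 1 colour. The groups were DLD1 given an siRNA against BRG1 (siBRG1), DLD1 given a control siRNA (siControl), HCT 116 given siBRG1 and HCT 116 given siControl, with 3 arrays each. BRG1, encoded by SMARCA4, powers SWI/SNF complexes that move nucleosomes, and the comparison addresses gene expression after its suppression. Whether the 3 arrays stand for independent cultures is not stated, so p-values reflect only the spread between these arrays, which may be technical. The labels name neither the sequences of the siRNAs nor when RNA was taken. For 4 HCT 116 samples the source name and the title disagree in a number, and the groups follow the titles.

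Mitochondrial apoptosis is set by binding between members of the family. The pro-survival proteins BCL-2, BCL-XL, BCL-w and MCL-1 hold the effectors BAK and BAX in check. The BH3-only proteins, among them BID, BIM, BAD, BIK and BMF, bind the pro-survival proteins or activate the effectors, which then open the outer mitochondrial membrane. The levels given below are of mRNA, whereas many of these proteins are also controlled by cleavage, phosphorylation or degradation.

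All values are on the log2 scale of the deposited table, where a difference of 1 is a doubling if the scale is plain log2. The table reaches 18.05, above the range of plain RMA, so its scale holds a step that is not named, and folds are as that scale gives them. The siRNA target SMARCA4 lay between 6.29 and 6.55 in DLD1 siBRG1 arrays, against 9.95 to 10.31 in DLD1 siControl arrays. It lay between 6.39 and 7.03 in HCT 116 siBRG1 arrays, against 9.59 to 10.15 in HCT 116 siControl arrays. The exact 2-sided permutation p was 0.1 in each line, the smallest that 3 arrays against 3 allow. Array medians were 6.36 to 6.5, and arrays of 1 group correlated at 0.988 to 0.994. HCT 116 siControl replicate 1 had the largest root mean square deviation from its group, 0.320, against 0.227 to 0.285 for the other 11 arrays. Of 9 measured markers of colorectal epithelium, 6 (EPCAM, CDH1, KRT8, KRT18, KRT19 and CDX2) stood above the median of every array, while CDX1, VIL1 and LGALS4 did not. Of the markers of other cell types, 1 of 5 for fibroblasts (COL1A2), 0 of 5 for immune cells and 0 of 3 for endothelium did so. Precision is limited by having 3 arrays a group.

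The 2 members called lower after siBRG1, in HCT 116 and on the average of the lines but not in DLD1, were BCL2L11 and BID. Both are pro-death. PMAIP1 and BAX, pro-death genes outside the 10 members, were called higher in HCT 116, as given below. The stretches before the starts of BCL2L11 and BID are shown because these are the members on which the results turn. Both stretches are from RefSeq (GRCh38.p14), end at the base before the outermost annotated start and are written 5′ to 3′ on the strand of the gene. Capitals mark GTAAACA, the core motif of FOXO factors, which are known activators of BCL2L11.
BCL2L11, chr2:111120664-111120913, plus strand: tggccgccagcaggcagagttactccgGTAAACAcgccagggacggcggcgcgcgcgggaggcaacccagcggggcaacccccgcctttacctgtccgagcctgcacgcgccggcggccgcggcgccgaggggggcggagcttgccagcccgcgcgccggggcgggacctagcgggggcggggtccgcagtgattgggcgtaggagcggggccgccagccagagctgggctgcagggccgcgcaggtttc
BID, chr22:17774666-17774915, minus strand: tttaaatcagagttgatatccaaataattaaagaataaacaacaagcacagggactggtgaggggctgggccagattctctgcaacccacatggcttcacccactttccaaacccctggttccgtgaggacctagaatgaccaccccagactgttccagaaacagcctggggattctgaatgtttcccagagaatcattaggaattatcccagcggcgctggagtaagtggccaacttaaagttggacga
The window of 250 bases shown for BCL2L11, which had 1 start, is 76.8% G or C. That shown for BID, 1 of 5, is 47.6%, and the other BID windows were not compared in this respect. Both strands were searched for GTAAACA (FOXO), TGANTCA (AP-1), TTTNGCGC (E2F) and CACGTG (E-box). BCL2L11 held the FOXO motif, with its first base 223 bases before the start, and none of the others. The BID window shown held none of the 4. In 250-base windows before 34943 RefSeq starts, these letters occurred in 2.98% for FOXO, 6.59% for AP-1, 1.49% for E2F and 6.32% for the E-box. Of the 10 members, 7 had windows in the table used, 14 in all. Among them the E-box occurred at 2 of the 5 BID windows, the E2F letters at 1 of the 2 BCL2L1 windows, and BCL2L11 alone held the FOXO motif. A match shows that the letters are present and nothing about binding.

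**Figure D1:**
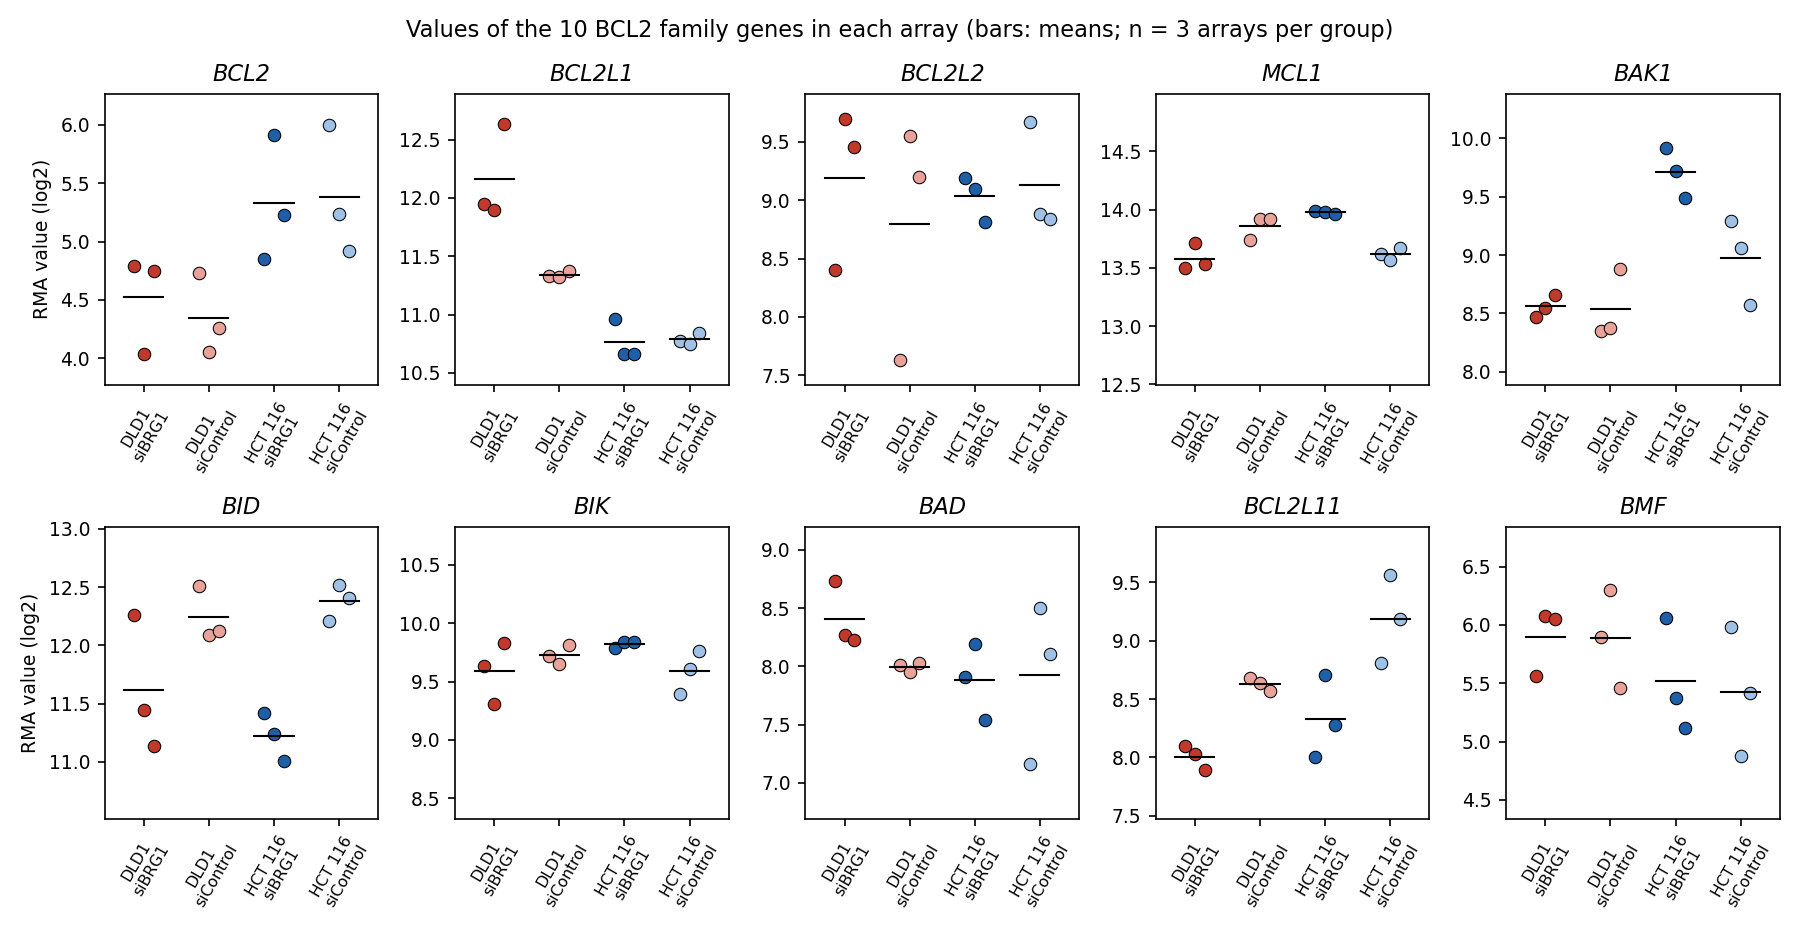
RMA value (log2, y axis) of each of the 10 genes in every array, by line and siRNA (x axis); each point is an array and the bar the mean of 3, and all panels span 2.5 log2 units. BID and BCL2L11 lie lower in the siBRG1 arrays of HCT 116, without overlap, and BCL2L1 lies higher in the siBRG1 arrays of DLD1.

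BID encodes the BH3-only protein that caspase-8 cleaves to carry death receptor signals to mitochondria. In HCT 116 it measured 11.42, 11.24 and 11.01 in siBRG1 arrays, against 12.21, 12.52 and 12.41 in siControl arrays. The groups did not overlap, and BID fell by 1.16 (SE 0.25, 95% interval −1.69 to −0.62, limma adjusted p = 0.013), which is 2.23-fold lower after siBRG1. In DLD1 it measured 12.26, 11.45 and 11.14 in siBRG1 arrays, against 12.51, 12.09 and 12.12 in siControl arrays. There the siBRG1 array numbered 1 lay within the range of the siControl arrays, and the difference of −0.62 (SE 0.25) did not pass (limma adjusted p = 0.382). Array by array, BID was lower in siBRG1 than in the siControl array of the same number in all 3 DLD1 pairs, and with the replicate block it did not pass either (limma adjusted p = 0.152). The DLD1 difference was −0.94 without siBRG1 replicate 1 (limma adjusted p = 0.085) and −0.38 without siBRG1 replicate 3 (0.952). Averaged over the lines, BID fell by 0.89 (SE 0.18, limma adjusted p = 0.00767). In bulk RNA of a cell line, fewer cells that express a gene and less of its RNA per cell cannot be told apart.

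BCL2L11 encodes BIM, a BH3-only protein that binds all pro-survival members. In HCT 116 it measured 8.0, 8.71 and 8.28 in siBRG1 arrays, against 8.81, 9.56 and 9.19 in siControl arrays. All siBRG1 arrays lay below all siControl arrays, the closest values being 8.71 (siBRG1 replicate 2) and 8.81 (siControl replicate 1). BCL2L11 fell by 0.86 (SE 0.22, 95% interval −1.32 to −0.39, limma adjusted p = 0.0272). In both HCT 116 groups the array numbered 1 was the lowest and that numbered 2 the highest. With the replicate block the limma adjusted p was 0.00547, though the numbers were not shown to pair these arrays. In DLD1 BCL2L11 measured 8.10, 8.03 and 7.89 in siBRG1 arrays, against 8.68, 8.64 and 8.57 in siControl arrays. The DLD1 groups did not overlap either, with a difference of −0.63 (SE 0.22) that did not pass over all genes (limma adjusted p = 0.287). Averaged over the lines, BCL2L11 fell by 0.74 (SE 0.15, limma adjusted p = 0.00915). It was the 1 member whose siBRG1 arrays lay below the siControl arrays in both lines, as did 2.58% of all genes. Of the FOXO genes, FOXO1 and FOXO3 were read, and neither passed in either line. These are mRNA levels, and the part of FOXO factors in the BCL2L11 values was not tested. FOXO1, with group means of 5.11 to 5.75 that lie below the array medians, differed by 0.36 in HCT 116 and 0.63 in DLD1 (SE 0.32 each), with all DLD1 siBRG1 arrays higher. FOXO3 differed by −0.16 in HCT 116 and 0.04 in DLD1 (SE 0.20 each).

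Beside the falls in HCT 116, the summed log2 level of the 9 epithelial markers was 91.6 to 92.5 in siBRG1 arrays, against 92.2 to 95.1 in siControl arrays. These markers did not move together. In HCT 116 siBRG1 and siControl arrays, KRT8 averaged 15.63 and 16.11 and KRT18 14.43 and 14.92. KRT19 lay the other way, at 15.69 and 15.16, and CDX2 averaged 9.37 and 9.36. The sum of the 5 immune markers, none of which stood above the median of every array, was 25.0 to 26.2 in HCT 116 siBRG1 arrays, against 24.0 to 24.5 in siControl arrays. Of these, CD68 averaged 7.05 ± 0.20 in HCT 116 siBRG1 arrays and 5.76 ± 0.23 in HCT 116 siControl arrays (SD, n = 3 each). The leukocyte gene PTPRC averaged 4.04 ± 0.60 in HCT 116 siBRG1 arrays and 3.87 ± 0.36 in HCT 116 siControl arrays. In DLD1 the immune sum lay the other way, at 23.3 to 23.6 in siBRG1 arrays, against 23.8 to 24.3 in siControl arrays. The part of either in these results was not tested.

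The average change called BID and BCL2L11 in each of 12 fits that left out 1 array. Their HCT 116 calls were not kept in each such fit. BID did not pass without HCT 116 siBRG1 replicate 3 (−1.05, limma adjusted p = 0.0613) or siControl replicate 2 (−1.08, 0.0577). BCL2L11 did not pass without siBRG1 replicate 1 (−0.70, limma adjusted p = 0.0955), siBRG1 replicate 3 (−0.83, 0.09), siControl replicate 2 (−0.67, 0.132) or siControl replicate 3 (−0.86, 0.0767), nor with HCT 116 fitted alone (−0.86, 0.0883). Each fit that left out 1 array kept the array of the same number in the other group. For BCL2L11 the array numbered 1 was the lowest and that numbered 2 the highest in both HCT 116 groups. Leaving out such an array alone thus also shifts the BCL2L11 difference. Without both HCT 116 arrays numbered 1, both genes passed (BID −1.34, limma adjusted p = 0.0286, and BCL2L11 −0.88, 0.0323).

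**Figure D2:**
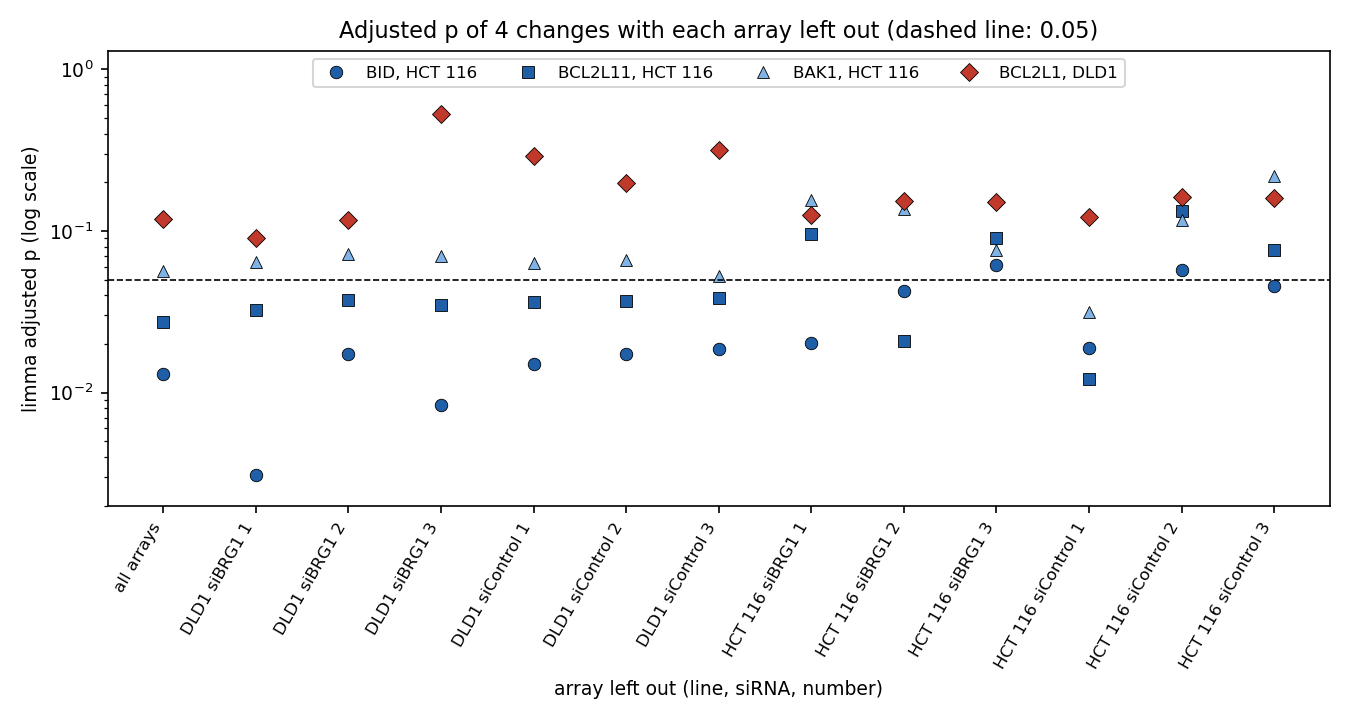
Limma adjusted p (y axis, log scale) of BID, BCL2L11 and BAK1 in HCT 116 and of BCL2L1 in DLD1, with all arrays and with each array left out (x axis). BID passed 0.05 in 10 of 12 such fits, BCL2L11 in 8, BAK1 in 1 and BCL2L1 in 0.

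BIK, BAD and BMF encode the other BH3-only proteins of the set, and none of them passed in either line. BIK, whose product sits at the endoplasmic reticulum, measured 9.79, 9.84 and 9.84 in HCT 116 siBRG1 arrays, against 9.39, 9.61 and 9.76 in siControl arrays. These groups lay apart by a margin of 9.79 against 9.76 (difference 0.24, SE 0.18, limma adjusted p = 0.517). In DLD1 it measured 9.63, 9.31 and 9.83 in siBRG1 arrays, against 9.72, 9.65 and 9.81 in siControl arrays (difference −0.13, SE 0.18).

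BAD encodes a protein that survival kinases such as AKT inactivate by phosphorylation. In DLD1 it measured 8.73, 8.27 and 8.23 in siBRG1 arrays, against 8.01, 7.95 and 8.03 in siControl arrays. The DLD1 groups did not overlap, but the difference of 0.41 (SE 0.29) did not pass (limma adjusted p = 0.704). In HCT 116 BAD measured 7.91, 8.19 and 7.54 in siBRG1 arrays, against 7.16, 8.50 and 8.11 in siControl arrays, with siControl replicate 1 the lowest of the 6 (difference −0.04, SE 0.29). BMF, whose product binds a dynein light chain, lay below the array median in all 12 arrays. It measured 5.56, 6.08 and 6.05 in DLD1 siBRG1 arrays, against 5.90, 6.30 and 5.46 in DLD1 siControl arrays, and 6.06, 5.37 and 5.12 in HCT 116 siBRG1 arrays, against 5.98, 4.88 and 5.42 in HCT 116 siControl arrays. Its groups overlapped in both lines, and its differences of 0.00 and 0.09 (SE 0.31 each) do not show that it was steady.

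BAK1 encodes BAK, an effector that forms pores in the outer mitochondrial membrane. In HCT 116 it measured 9.92, 9.72 and 9.49 in siBRG1 arrays, against 9.29, 9.06 and 8.57 in siControl arrays. The groups did not overlap, with a difference of 0.74 (SE 0.22, 95% interval 0.27 to 1.2) that narrowly missed the threshold (limma adjusted p = 0.0568). It passed under 7 of 25 alternatives, and in 1 of the 12 fits that left out 1 array (limma adjusted p 0.0154 to 0.305 over the alternatives). Those it passed included a further quantile normalization (0.77, limma adjusted p = 0.0446), centring on array medians (0.80, 0.0397) and array weights (0.75, 0.0289). It also passed when genes of low mean level were left out, and without siControl replicate 1 (0.90, limma adjusted p = 0.0317). In DLD1 BAK1 measured 8.47, 8.55 and 8.66 in siBRG1 arrays, against 8.35, 8.37 and 8.88 in siControl arrays. These overlapped, and the difference of 0.03 (SE 0.22) turned negative with other scalings.

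Of the pro-survival genes, BCL2L1 encodes BCL-XL and, by alternative splicing, the pro-death form BCL-XS, which the single array value does not separate. In DLD1 it measured 11.95, 11.90 and 12.63 in siBRG1 arrays, against 11.33, 11.32 and 11.37 in siControl arrays. All siBRG1 arrays were higher, with replicate 3 the highest, and the difference of 0.82 (SE 0.20, 95% interval 0.39 to 1.25) did not pass over all genes (limma adjusted p = 0.118). Without that array it was 0.58 (limma adjusted p = 0.525). In HCT 116 BCL2L1 measured 10.96, 10.66 and 10.66 in siBRG1 arrays, against 10.77, 10.75 and 10.84 in siControl arrays, with a difference of −0.03 (SE 0.20, 95% interval −0.45 to 0.40). The changes of the lines differed by −0.85 (HCT 116 minus DLD1, SE 0.28), which did not pass the test of the difference (limma adjusted p = 0.304).

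MCL1 encodes a short-lived pro-survival protein. In HCT 116 it measured 13.99, 13.98 and 13.96 in siBRG1 arrays, against 13.62, 13.57 and 13.67 in siControl arrays (difference 0.36, SE 0.16, limma adjusted p = 0.208). In DLD1 it measured 13.50, 13.71 and 13.53 in siBRG1 arrays, against 13.74, 13.92 and 13.92 in siControl arrays (difference −0.28, SE 0.16, limma adjusted p = 0.577). The siBRG1 arrays thus lay above all siControl arrays in HCT 116 and below all of them in DLD1, without passing in either line, an opposite separation that 0.724% of all genes showed.

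BCL2L2, which encodes BCL-w, measured 8.40, 9.70 and 9.46 in DLD1 siBRG1 arrays, against 7.63, 9.55 and 9.20 in DLD1 siControl arrays. In both DLD1 groups the array numbered 1 was the lowest, and the siControl SD of 1.02 was the largest of any member in any group. In HCT 116 it measured 9.19, 9.10 and 8.81 in siBRG1 arrays, against 9.67, 8.88 and 8.84 in siControl arrays. The differences of 0.39 and −0.10 (SE 0.43 each) did not pass. Without DLD1 siControl replicate 1 the first was −0.19, in a fit that kept the low siBRG1 array of that number. Array by array, BCL2L2 was higher in siBRG1 than in the siControl array of the same number in every DLD1 pair. With the replicate block the DLD1 difference did not pass either (limma adjusted p = 0.356). RefSeq also annotates a read-through gene, BCL2L2-PABPN1, and how far the probes separate the transcripts was not tested.

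BCL2, the founding pro-survival gene, lay below the array median in all 12 arrays. It measured 4.79, 4.04 and 4.75 in DLD1 siBRG1 arrays, against 4.73, 4.05 and 4.26 in DLD1 siControl arrays, and 4.85, 5.91 and 5.23 in HCT 116 siBRG1 arrays, against 6.0, 5.24 and 4.92 in HCT 116 siControl arrays. The siBRG1 and siControl arrays overlapped in each line, with differences of 0.18 and −0.06 (SE 0.32 each).

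**Figure D3:**
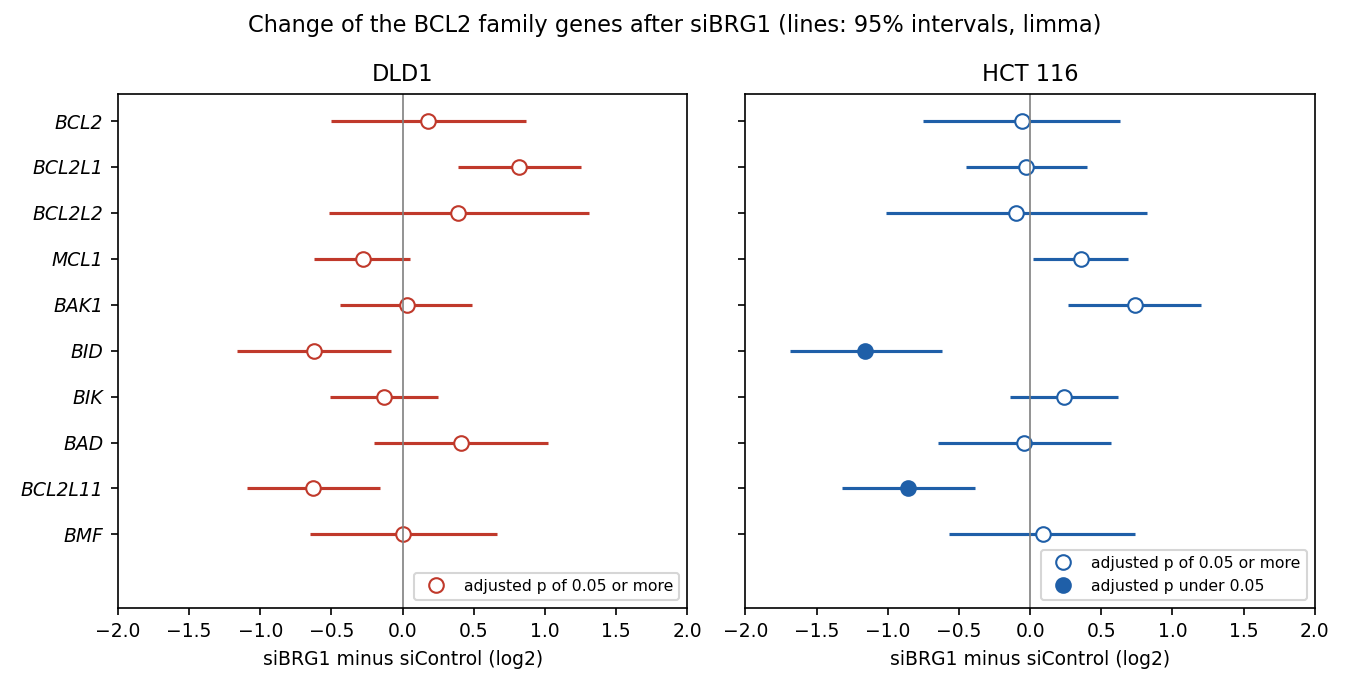
Difference between siBRG1 and siControl (x axis, log2) for each gene in DLD1 and in HCT 116, with 95% intervals from limma; filled points have an adjusted p under 0.05. BID at −1.16 and BCL2L11 at −0.86 in HCT 116 are the filled points.

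Over the set, limma called 0 of 10 members in DLD1, where it called 0.198% of all genes (0.0678% higher and 0.13% lower), with 3 members (BCL2L1, BID and BCL2L11) at an unadjusted p under 0.05, as were 10.5% of all genes. In HCT 116 it called 2 of 10, both lower, against 6.95% of all genes in either direction, 2.82% higher and 4.13% lower. At an unadjusted p under 0.05 there were 4 members in HCT 116, as were 20.4% of all genes. For the average of the lines it called BID and BCL2L11, both lower, against 8.68% of all genes in either direction, 4.01% higher and 4.68% lower. At an unadjusted p under 0.05 there were 4 members on average, as were 21.5% of all genes. The siBRG1 and siControl arrays did not overlap for 4 members in DLD1 (BCL2L1, MCL1, BAD and BCL2L11) and 5 in HCT 116 (MCL1, BAK1, BID, BIK and BCL2L11), against 15.5% and 24.9% of all genes. The siBRG1 arrays lay lower for 2 members in DLD1 and 2 in HCT 116, against 7.19% and 13% of all genes, and higher for 2 and 3, against 8.33% and 11.9%. The median difference of the members was 0.02 in DLD1 and −0.04 in HCT 116, beside 0.01 and −0.01 over all genes.

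No member passed the test of a difference between the responses of the lines (HCT 116 change minus DLD1 change). Limma called 0 of 10, against 0.334% of all genes, and 3 members had an unadjusted p under 0.05, as had 8.99% of all genes. These were BCL2L1 (−0.85), MCL1 (0.64) and BAK1 (0.71, SE 0.31). For BID the lines differed by −0.54 (95% interval −1.30 to 0.22) and for BCL2L11 by −0.23 (−0.89 to 0.42), so the falls called in HCT 116 are not shown to differ from the DLD1 values.

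Between the control lines, 1 of 10 members was called, higher in HCT 116, against 27.6% of all genes (13.6% higher and 14% lower). At an unadjusted p under 0.05 there were 3 members, against 36.2% of all genes. BCL2 was higher in HCT 116 siControl arrays, at 5.39 ± 0.56, than in DLD1 siControl arrays, at 4.35 ± 0.35 (SD, n = 3 each; difference 1.04, SE 0.32, limma adjusted p = 0.0244). Both means lie below the array medians, and the call was lost without HCT 116 siControl replicate 1 (0.73, limma adjusted p = 0.119), DLD1 siControl replicate 2 (0.89, 0.0946) or DLD1 siControl replicate 3 (1.0, 0.0712). BCL2L1 averaged 10.78 ± 0.05 in HCT 116 siControl arrays and 11.34 ± 0.03 in DLD1 siControl arrays (SD, n = 3 each), a difference of −0.56 at the edge of the threshold (SE 0.20, limma adjusted p = 0.0508), which passed under 8 of 23 alternatives. BCL2L11 averaged 9.19 ± 0.37 in HCT 116 siControl arrays and 8.63 ± 0.05 in DLD1 siControl arrays (difference 0.56, SE 0.22, limma adjusted p = 0.0714). It passed under 5 of 23, among them array weights (0.73, limma adjusted p = 0.00881) and the fit without HCT 116 siControl replicate 1 (0.75, 0.0214). The other 7 had differences between −0.46 (BMF) and 0.44 (BAK1).

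BCL2L1 was ordered highest in DLD1 siBRG1 arrays (12.16 ± 0.41), then DLD1 siControl (11.34 ± 0.03), with HCT 116 siControl (10.78 ± 0.05) and HCT 116 siBRG1 arrays (10.76 ± 0.17) within their spread of each other. For BID the order was HCT 116 siControl (12.38 ± 0.16) and DLD1 siControl (12.24 ± 0.23), then DLD1 siBRG1 (11.62 ± 0.58) and HCT 116 siBRG1 arrays (11.22 ± 0.21). No neighbours in this order differed beyond their spread, and arrays of DLD1 siBRG1 and DLD1 siControl overlapped. For BCL2L11 it was HCT 116 siControl (9.19 ± 0.37), DLD1 siControl (8.63 ± 0.05), HCT 116 siBRG1 (8.33 ± 0.35) and DLD1 siBRG1 arrays (8.0 ± 0.11). Here HCT 116 siBRG1 arrays were within their spread of both neighbours.

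After the mean of each line was subtracted, BID and BCL2L11 correlated at 0.81 over the 12 arrays, which share the siRNA contrast. The genes most like BID over these arrays were OAZ1, the antizyme of ornithine decarboxylase (r = 0.986), the sterol isomerase gene EBP (0.972) and EIF4EBP1, a repressor of translation initiation (0.970). Those most like BCL2L11 were TSN (0.964), ZFYVE21 (0.956) and TMEM229A (0.953). Those most like BCL2L1 were VEPH1 (0.949), SCEL, a gene of the cornified envelope (0.940) and the integrin gene ITGB8 (0.940), whose differences were 1.67, 1.51 and 1.58 in DLD1 and −0.23, 0.14 and −0.48 in HCT 116.

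Other genes of mitochondrial apoptosis were read from 4 lists. Of 12 other BCL2 family genes measured, limma called 2 in HCT 116, both higher, against 2.82% of all genes higher, and 0 in DLD1, against 0.198% of all genes. At an unadjusted p under 0.05 there were 5 in HCT 116 and 1 in DLD1, against 20.4% and 10.5% of all genes. PMAIP1, which encodes the BH3-only protein NOXA that binds MCL-1, measured 11.62, 12.73 and 12.77 in HCT 116 siBRG1 arrays, against 9.19, 10.48 and 10.48 in siControl arrays, and rose by 2.32 (SE 0.43, limma adjusted p = 0.00469). BAX, the effector that acts beside BAK, measured 12.04, 12.07 and 11.90 in HCT 116 siBRG1 arrays, against 11.52, 11.48 and 11.39 in siControl arrays. It rose by 0.54 (SE 0.15, limma adjusted p = 0.0481), a call that 17 of 25 alternatives lost, all 12 that left out 1 array among them. BAX and BAK1 had differences of −0.16 (SE 0.15) and 0.03 in DLD1. The PMAIP1 changes of the lines differed by 2.88 (HCT 116 minus DLD1, SE 0.60), which missed the threshold (limma adjusted p = 0.0604). BCL2L13, a mitophagy receptor picked out after its values were seen, passed on the average of the lines (0.78, SE 0.18, limma adjusted p = 0.0154) and in neither line by itself.

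Among 12 genes of the outer membrane and of caspase activation, limma called 0 in either line. Over all genes it called 6.95% in HCT 116 and 0.198% in DLD1. Of the list, 0 had an unadjusted p under 0.05 in either line, against 20.4% and 10.5% of all genes. The largest differences were those of CASP9, the initiator caspase of the apoptosome (0.53, SE 0.28, in DLD1), and of CYCS, cytochrome c (−0.33, SE 0.16, in DLD1). CASP8, whose product cleaves BID, differed by −0.12 (SE 0.18) in HCT 116 and −0.07 (SE 0.18) in DLD1. The median of the list was −0.03 in HCT 116 and 0.01 in DLD1.

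Of 20 partners and kinases of BH3-only proteins, limma called 1 higher and 2 lower in HCT 116, against 2.82% and 4.13% of all genes. In DLD1 it called 0, against 0.198% of all genes. At an unadjusted p under 0.05 there were 7 in HCT 116 and 1 in DLD1, against 20.4% and 10.5% of all genes. DYNLL2, the dynein light chain that binds BMF, measured 12.01, 11.77 and 11.75 in HCT 116 siBRG1 arrays, against 12.72, 12.74 and 12.94 in siControl arrays, and fell by 0.96 (SE 0.18, limma adjusted p = 0.00469). AKT1, a kinase that phosphorylates BAD, fell by 0.68 (SE 0.18, limma adjusted p = 0.0316) in HCT 116 and had a difference of −0.60 (SE 0.18) in DLD1 that did not pass, and it fell by 0.64 on average (SE 0.12, limma adjusted p = 0.0063). Its HCT 116 call was lost after centring on array medians and in 5 of the 12 fits that left out 1 array. SFN, the 14-3-3 sigma gene, whose relatives hold phosphorylated BAD in the cytosol, rose by 0.75 (SE 0.17, limma adjusted p = 0.0171), a call lost in 4 of the 12.

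Of 9 genes of MCL-1 turnover, limma called 2 higher and 1 lower in HCT 116, against 2.82% and 4.13% of all genes. In DLD1 it called 0, against 0.198% of all genes. At an unadjusted p under 0.05 there were 5 in HCT 116 and 1 in DLD1, against 20.4% and 10.5% of all genes. FBXW7, a ubiquitin ligase receptor that marks MCL-1 for degradation, measured 9.97 to 10.11 in HCT 116 siBRG1 arrays, against 8.59 to 8.89 in siControl arrays, and rose by 1.28 (SE 0.25, limma adjusted p = 0.00638). USP9X, a deubiquitinase that stabilises MCL-1, rose by 0.86 (SE 0.19, limma adjusted p = 0.0119), a call lost without HCT 116 siControl replicate 3. DUSP6, a phosphatase of ERK, fell by 1.14 (SE 0.20, limma adjusted p = 0.00328). In DLD1 these 3 had differences of −0.28 (FBXW7), −0.04 (USP9X) and 0.08 (DUSP6). BTRC, picked out after its values were seen, had all siBRG1 arrays higher in both lines, as had 2.52% of all genes. It passed on the average of the lines (0.55, SE 0.12, limma adjusted p = 0.0145). By itself neither line passed for BTRC (0.81, limma adjusted p = 0.0914, in DLD1 and 0.28, 0.415, in HCT 116). The list thus held genes that moved in HCT 116 and are known to act on MCL-1 in opposite directions.

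**Figure D4:**
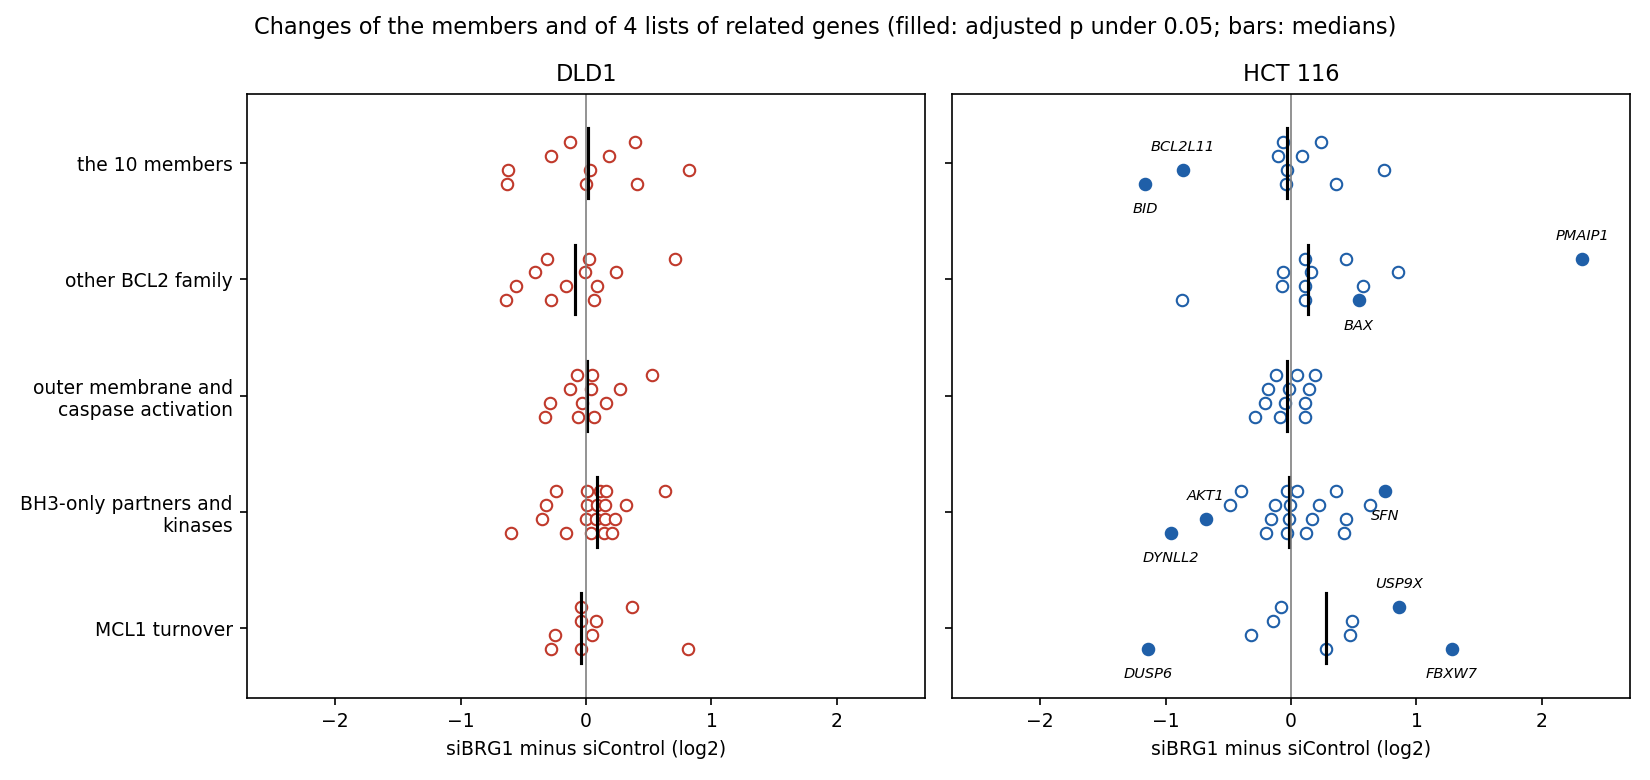
Difference between siBRG1 and siControl (x axis, log2) for the 10 members and the 4 lists (y axis), in DLD1 and HCT 116; each point is a gene, filled and named where the adjusted p was under 0.05, and bars are medians. In HCT 116 BID and BCL2L11 were lower and PMAIP1 and BAX higher, while no point in DLD1 is filled.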

How the data were processed

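Total RNA was biotin-labelled and hybridised to 1 array per sample. The deposited values are log2 values. Per the submitters' processing notes, the authors used RMA and Affymetrix Power Tools, with no version or genome build named. RMA makes arrays alike in distribution, so only changes relative to the other genes are seen. Values reach 18.05, above the range of plain RMA, so the scale holds a step that the labels do not name.

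Samples were grouped by title. Of 21448 features, 17709 had 1 symbol (matched to RefSeq by Entrez ID), which gave 17687 genes, each by its feature with the highest mean. Limma 3.58.1 in R 4.3.3 fitted 4 group means to the 12 arrays (8 residual and 6.66 prior degrees of freedom), with Benjamini-Hochberg adjustment over all genes and a call at an adjusted p under 0.05. The members, lists and rules were chosen with earlier results of these data known. All members were named; of each list, the genes called in either line, or the 2 with the largest change where none was; and, for the 3 members with the largest average moderated t, the 3 genes of highest correlation. CASP8, FOXO1, FOXO3, BCL2L13, BTRC, CD68 and PTPRC fall outside this rule and were named after their values were seen. Some genes of the lists are not reported here.

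In DLD1, same-numbered siBRG1 and siControl arrays deviated together (correlations 0.49, 0.46 and 0.29), so the numbers may pair them, which the labels do not say. In HCT 116 the correlations were 0.30, 0.15 and 0.03. The main fit used no pairing in either line, so its SE, intervals and adjusted p-values do not allow for any. Pairing by number entered only through the replicate block, an alternative that applied it to both lines in 1 fit. The alternatives were the replicate block, each line alone, 2 further normalizations, 2 level filters, other features, another prior, array weights, a minimum change, a stricter threshold and arrays left out. On simulated data with the real genes, of 50 genes each changed by 0.5, 0.8, 1.2 and 2 (log2) in HCT 116 the fit called 4, 26, 82 and 100%, and in DLD1 2, 30, 78 and 98%. There 17487 of 17687 genes were left unchanged in each line, and noise was independent between arrays. The real HCT 116 fit called 1230 genes, so these rates need not hold for it.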

Additional observations from a re-analysis of the deposited data

Results flagged for a closer look

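MCL1 was picked out because its siBRG1 arrays lay above all siControl arrays in HCT 116 (13.96 to 13.99, against 13.57 to 13.67) and below all of them in DLD1 (13.50 to 13.71, against 13.74 to 13.92). Of all genes, 0.724% showed such opposite separation. The difference of the changes (HCT 116 minus DLD1) was 0.64 (SE 0.22, 95% interval 0.17 to 1.11), which did not pass over all genes (limma adjusted p = 0.332, and 0.152 to 1 over the alternatives). Groups of 3 arrays were too small for a search for single outlying arrays.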

How the results depend on the processing

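SMARCA4 kept its call in both lines under all 25 alternatives (−3.91 to −3.74 in DLD1 and −3.40 to −3.05 in HCT 116). BID and BCL2L11 kept their direction in both lines under every alternative run, and their average call under 23 of 24. In HCT 116 the count of members called, 2, became 1 with the line fitted alone, 0 at a minimum change of 1.2-fold, 0 at an adjusted p under 0.01, and 0 to 3 with 1 array left out. On average it became 0 at the minimum change of 1.2-fold. Between the control lines the count of 1 became 2 after quantile normalization, 2 after centring, 2 above the lower quartile, 2 above the median, 2 with a trended robust prior, 3 with array weights, 0 at the minimum change, 0 at the stricter threshold and 0 to 2 with 1 array left out. The 4 lists, of 12, 12, 20 and 9 measured genes, together had 0 calls in DLD1, 1 above the median level and 1 with array weights. In HCT 116 they had 8, which became 4 at the minimum change, 4 at the stricter threshold and 4 to 8 with 1 array left out. Over all genes 0.198% were called in DLD1 and 6.95%, or 1230, in HCT 116. Those 1230 became 401, 418 and 618 to 1271 under the same settings.

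With the replicate block, no member passed in DLD1 (BCL2L1 at limma adjusted p = 0.0718 and BCL2L11 at 0.0783), while all genes called there numbered 98, against 35 without it. With the block in HCT 116, BAK1 (limma adjusted p = 0.0154), BID (0.00573) and BCL2L11 (0.00547) passed. On average BAK1 passed with it as well (0.046), beside BID and BCL2L11. In HCT 116 the numbers were not shown to pair the arrays, as 1 of 3 siBRG1 arrays, replicate 1, correlated best with its own number. In HCT 116 siBRG1 replicate 2 correlated best with siControl replicate 3, and siBRG1 replicate 3 with siControl replicate 2. Calls over all genes there numbered 2123 with the block and 1230 without it. On average they numbered 2476 with it and 1536 without, and for the line difference 102 and 59. The block was not fitted for the control lines, nor were contrasts across lines with each line fitted alone. BCL2 and BMF fell below the stricter level filter and had no value there.

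Over all genes, the 35 calls in DLD1 became 4 with the line alone, 63 with the trended prior, 128 with array weights, 12 at the minimum change, 11 at the stricter threshold and 7 to 66 with 1 array left out. The 1230 in HCT 116 became 2035 with weights, 401 at the minimum change, 418 at the stricter threshold and 618 to 1271 with 1 array left out. The 1536 on average became 2306 with weights, 266 at the minimum change, 494 at the stricter threshold and 797 to 1593 with 1 array left out, and the 59 for the line difference became 162, 28, 16 and 26 to 71.

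Uncalled differences near 0 changed sign. In DLD1, BAK1 was −0.02 after quantile normalization, −0.01 after centring and −0.01 with array weights, and BMF −0.01 and −0.03 after the first pair. In HCT 116, BCL2 was 0.00 after centring, 0.19 with weights and 0.49 without both arrays numbered 1, BCL2L1 0.00 after quantile normalization and 0.04 after centring, BCL2L2 0.04 with weights and 0.10 without both arrays, and BAD 0.01 and 0.02 after the 2 normalizations. Without both arrays BAD was −0.01 on average and 0.31 between the control lines (0.21 with weights), and the line difference of BCL2 was 0.31 (0.02 with weights).

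With 1 array left out, the DLD1 ranges that crossed 0 were −0.19 to 0.79 (BCL2L2), −0.06 to 0.20 (BAK1), −0.25 to 0.01 (BIK) and −0.21 to 0.21 (BMF). In HCT 116 they were −0.35 to 0.25 (BCL2), −0.13 to 0.02 (BCL2L1), −0.24 to 0.17 (BCL2L2), −0.43 to 0.24 (BAD) and −0.19 to 0.36 (BMF). On average they were −0.08 to 0.22 (BCL2), −0.14 to 0.34 (BCL2L2), −0.01 to 0.12 (BIK), −0.01 to 0.33 (BAD) and −0.09 to 0.18 (BMF). For the line difference they were −0.53 to 0.07 (BCL2), −0.89 to 0.09 (BCL2L2) and −0.19 to 0.36 (BMF), and between the control lines −0.24 to 0.71 (BCL2L2) and −0.36 to 0.31 (BAD). The causes were not tested.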
